A study of Rattus norvegicus with 8 samples.

Results

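The genes studied here are 57 genes of the mitotic spindle, the kinetochore and cytokinesis, read from RNA-seq counts of sorted rat peritoneal macrophages. They were chosen by gene symbol from a list that was set with earlier results of these data known. All 57 symbols were found, each once, among the 23487 genes of the table. Cells came from Wistar rats, 8 weeks old, that had received an intraperitoneal injection of CNT-7 (the needle-like multi-walled carbon nanotube MWCNT-XNRI-7, which induces mesothelioma in rats) or of CNT-T (a tangled multi-walled nanotube, MWCNT-CNT-T, which does not). Macrophages were sorted by flow cytometry 15 days after the injection, with 4 rats per particle and 1 library per rat. Both groups carry particles and no RNA from uninjected animals was analysed here, so each difference is one between CNT-7 and CNT-T. Words such as fell, lower and rose therefore give the CNT-7 level relative to CNT-T, and not a change from uninjected rats. In RNA of whole populations, fewer cells in mitosis and less mitotic RNA per cell cannot be told apart.

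When a cell divides, its chromosomes condense, each sister chromatid pair is held by a kinetochore to microtubules of the spindle, and a checkpoint delays separation until every pair is attached. The anaphase-promoting complex, activated by Cdc20, then destroys securin and cyclin B, sister chromatids part, and a contractile ring at the spindle midzone divides the cytoplasm. Most genes of these steps are transcribed late in the cell cycle and are nearly silent in resting cells. Macrophages of serous cavities are known to renew themselves by local division as well as from blood monocytes. The comparison addresses how far transcription of this machinery differed between macrophages that had met either nanotube.

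Libraries held between 27195157 and 33732981 counts per rat, and no gene of the 57 had fewer than 39 counts in any rat. All 57 genes were tested, and all 57 were significantly lower after CNT-7 than after CNT-T (edgeR's quasi-likelihood test, Benjamini-Hochberg adjusted p-value below 0.10, adjusted over 12124 genes). Among all genes tested, 14.0% were lower by the same rule and 13.9% higher, together 27.9%. The fall lay between 1.22-fold for Bub3 and 3.19-fold for Top2a, with a median of 2.32-fold, and 49 of the 57 genes fell at least 2-fold, against 3.74% of all genes. The median log2 fold change (CNT-7 over CNT-T) of the 57 genes was -1.21, whereas that of all genes tested was 0.0083, and 56 of the 57 lay in the lowest 10% of all genes. In 56 genes the highest CNT-7 rat was below the lowest CNT-T rat, which was so in 12.6% of all genes. The exception was Cenpn. The adjusted p-values ran from 0.000655 for Nusap1 to 0.0685 for Cenpn.

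**Figure D1:**
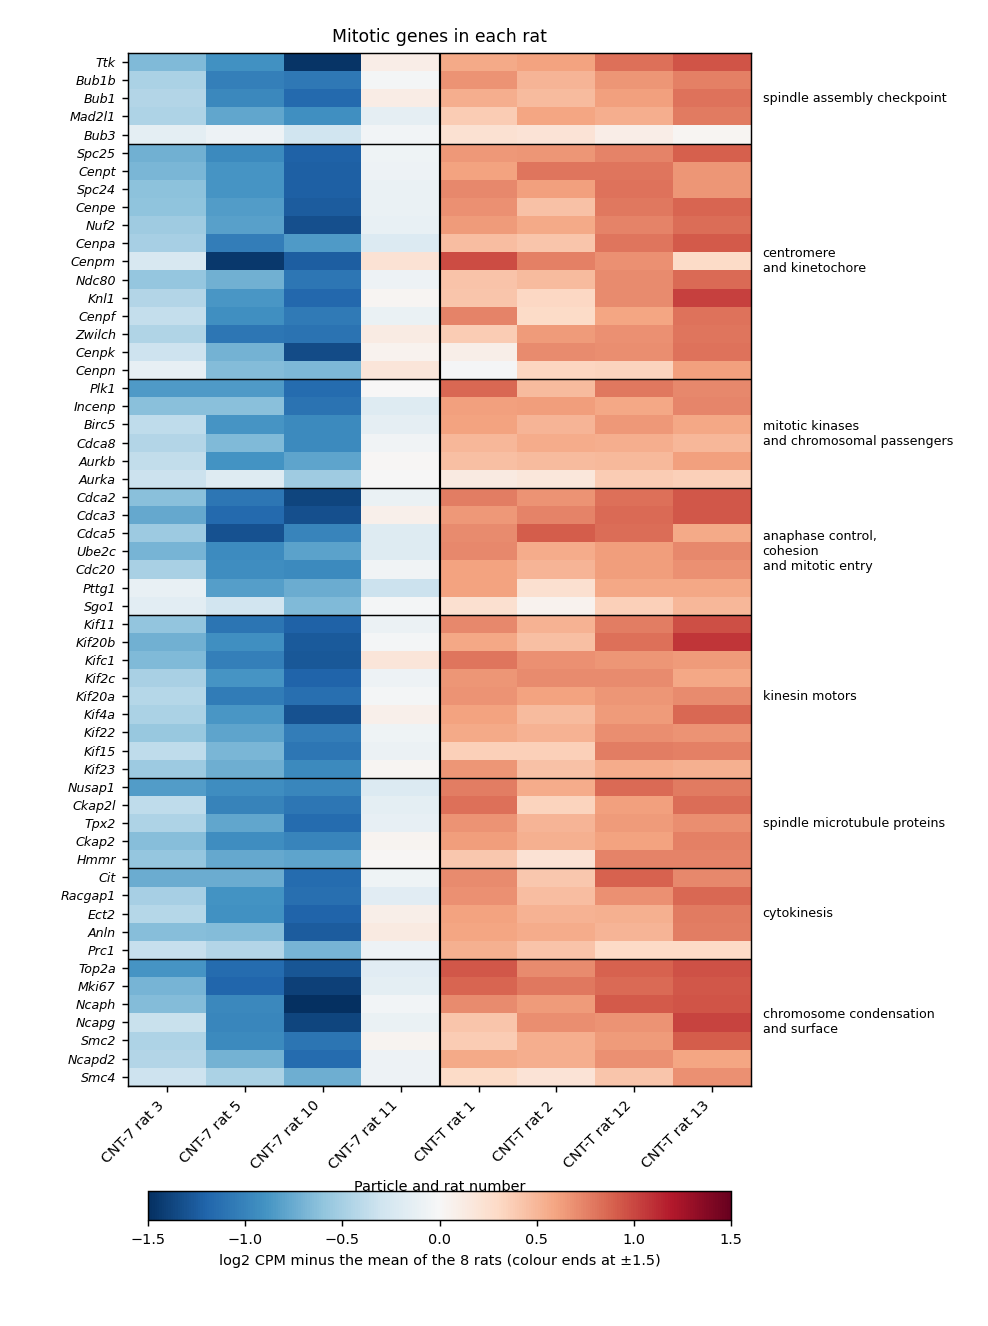
Level of each of the 57 mitotic genes in each rat, as log2 CPM (counts for every 1000000 in a library) minus the mean of the 8 rats for that gene, with genes in rows grouped by role and rats in columns. The 4 CNT-T rats are above the mean in nearly every row, CNT-7 rat 10 is the lowest rat in 51 rows and CNT-7 rat 11 is closest to CNT-T.

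To show what these genes share in their control regions, promoter sequences were taken from RefSeq (build GRCr8, 250 bases before to 50 bases after the annotated start of transcription). Many mitotic genes are known to carry a CCAAT box, which is bound by NF-Y, and a cell cycle genes homology region (CHR), which is bound by the MuvB complexes that repress these genes in resting cells and activate them before mitosis. A promoter was found by symbol for 49 genes, and 8 (Cenpt, Zwilch, Aurkb, Incenp, Ube2c, Cdca2, Tpx2 and Racgap1) had no entry. Both strands were searched for TTTGAA or TTCGAA, the letters taken for a CHR, and for CCAAT. A CHR match was present in 39 of the 49 promoters (79.6%) and in 19.7% of 33365 promoters of the same length. CCAAT was present in 35 (71.4%) and in 37.5% of all promoters, and both were present in 29 (59.2%) and in 7.94% of all promoters. Only 4 of the 49 held neither, against 50.7% of all promoters. A match describes the letters in this window and not a bound site.

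One promoter per role is shown, that of the first of the 2 genes with the largest falls that had an entry with a match, so that the spacing of both motifs can be read beside the values. Sequences run 5′ to 3′ on the strand of the gene in lower case, and capitals mark matches to either CHR form or to CCAAT, on either strand. They belong to Ttk (chr8:93634389-93634688, + strand), Spc25 (chr3:74396669-74396968, - strand), Plk1 (chr1:186147408-186147707, + strand), Cdca3 (chr4:159320953-159321252, + strand), Kif11 (chr1:244536617-244536916, + strand), Nusap1 (chr3:127057045-127057344, + strand), Cit (chr12:46424607-46424906, - strand) and Top2a (chr10:84473044-84473343, - strand). In Ttk, Spc25, Plk1 and Nusap1 a CHR match follows a CCAAT box within this window. Top2a holds CCAAT boxes on the opposite strand and matches to both CHR forms, Cdca3 and Kif11 hold CCAAT boxes alone and Cit a CHR match alone.
Ttk: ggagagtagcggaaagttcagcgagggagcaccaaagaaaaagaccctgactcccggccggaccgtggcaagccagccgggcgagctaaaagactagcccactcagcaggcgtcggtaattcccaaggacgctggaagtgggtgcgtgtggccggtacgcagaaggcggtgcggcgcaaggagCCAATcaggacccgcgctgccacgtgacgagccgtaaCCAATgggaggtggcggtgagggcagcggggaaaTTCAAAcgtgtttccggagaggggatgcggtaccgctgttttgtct
Spc25: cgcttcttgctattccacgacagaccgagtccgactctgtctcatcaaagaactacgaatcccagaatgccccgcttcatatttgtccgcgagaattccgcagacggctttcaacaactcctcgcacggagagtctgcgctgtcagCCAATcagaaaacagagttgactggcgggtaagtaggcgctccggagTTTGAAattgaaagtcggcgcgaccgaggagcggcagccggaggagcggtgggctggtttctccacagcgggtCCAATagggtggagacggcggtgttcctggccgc
Plk1: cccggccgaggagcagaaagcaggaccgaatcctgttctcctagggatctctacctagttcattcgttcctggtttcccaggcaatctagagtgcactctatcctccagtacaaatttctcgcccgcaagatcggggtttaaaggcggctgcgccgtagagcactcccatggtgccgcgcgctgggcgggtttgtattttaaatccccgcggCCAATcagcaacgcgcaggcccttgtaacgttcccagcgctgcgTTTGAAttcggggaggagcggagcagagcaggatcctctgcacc
Cdca3: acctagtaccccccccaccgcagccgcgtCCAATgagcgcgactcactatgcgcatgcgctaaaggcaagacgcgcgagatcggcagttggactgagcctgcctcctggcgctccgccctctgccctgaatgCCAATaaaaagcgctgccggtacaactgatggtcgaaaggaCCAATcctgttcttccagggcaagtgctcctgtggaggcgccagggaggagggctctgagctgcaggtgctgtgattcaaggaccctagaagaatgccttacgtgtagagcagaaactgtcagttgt
Kif11: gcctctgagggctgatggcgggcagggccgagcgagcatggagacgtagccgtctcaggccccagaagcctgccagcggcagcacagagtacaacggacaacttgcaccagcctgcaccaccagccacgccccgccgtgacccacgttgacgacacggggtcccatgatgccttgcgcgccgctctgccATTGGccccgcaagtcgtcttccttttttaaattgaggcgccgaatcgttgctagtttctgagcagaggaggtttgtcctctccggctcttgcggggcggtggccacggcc
Nusap1: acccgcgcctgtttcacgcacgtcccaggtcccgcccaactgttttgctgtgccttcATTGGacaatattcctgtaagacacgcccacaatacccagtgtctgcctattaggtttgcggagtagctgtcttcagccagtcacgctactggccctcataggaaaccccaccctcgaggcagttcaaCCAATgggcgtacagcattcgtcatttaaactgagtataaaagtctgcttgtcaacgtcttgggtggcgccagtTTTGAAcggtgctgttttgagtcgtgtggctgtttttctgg
Cit: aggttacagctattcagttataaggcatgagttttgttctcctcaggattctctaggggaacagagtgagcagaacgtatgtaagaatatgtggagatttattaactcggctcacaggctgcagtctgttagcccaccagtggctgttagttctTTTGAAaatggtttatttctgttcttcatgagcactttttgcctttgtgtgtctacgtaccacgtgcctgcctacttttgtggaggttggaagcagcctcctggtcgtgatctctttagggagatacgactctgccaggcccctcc
Top2a: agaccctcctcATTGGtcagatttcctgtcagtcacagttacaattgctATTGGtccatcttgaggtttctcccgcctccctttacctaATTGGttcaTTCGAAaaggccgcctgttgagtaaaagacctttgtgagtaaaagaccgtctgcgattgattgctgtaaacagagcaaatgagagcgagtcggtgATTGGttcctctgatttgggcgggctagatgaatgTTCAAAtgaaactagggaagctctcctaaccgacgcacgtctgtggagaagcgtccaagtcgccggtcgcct

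**Figure D2:**
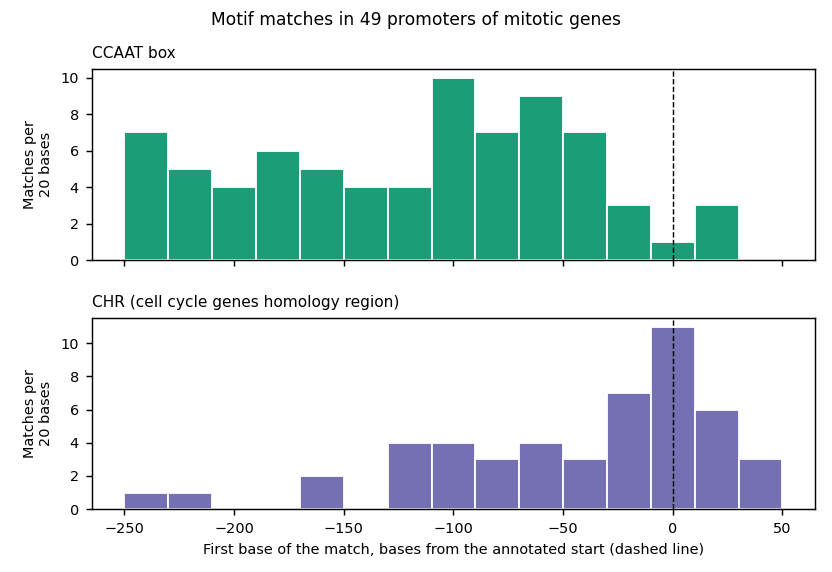
Position of each motif match in the 49 promoters, in bases from the annotated start of transcription (x axis), as the number of matches per 20 bases (y axis). The 75 CCAAT matches have a median position of -99 and the 49 CHR matches a median of -24, so that CHR matches lie nearer the start.

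Genes of the spindle assembly checkpoint come first. Levels are given below in CPM (counts for every 1000000 in a library) with TMM-normalized library sizes, and always in the order of CNT-7 rats 3, 5, 10 and 11 and CNT-T rats 1, 2, 12 and 13. Ttk, the kinase (Mps1) that starts checkpoint signalling at unattached kinetochores, had 11.8, 9.92, 6.72 and 19.9 CPM in the CNT-7 rats against 27.6, 28.3, 33.2 and 35.9 CPM in the CNT-T rats (log2 fold change -1.37 ± 0.28 SE, adjusted p = 0.00745). Bub1b, which encodes BubR1, an inhibitor of Cdc20, had 20.3, 13.9, 13.4 and 27.6 CPM in the CNT-7 rats against 45.1, 40.1, 44.8 and 47.5 CPM in the CNT-T rats (log2 fold change -1.24 ± 0.21 SE, adjusted p = 0.00346). For both genes CNT-7 rat 11 was the highest of its group and still below every CNT-T rat. Bub1, a kinase of the checkpoint, and Mad2l1 (Mad2), which binds Cdc20, also fell, with log2 fold changes of -1.14 and -1.12. Bub3, which carries Bub1 and BubR1 to the kinetochore, changed least of all 57 genes. It had 57.9, 60.7, 51.9 and 62.3 CPM in the CNT-7 rats against 75.1, 73.7, 68.8 and 65.5 CPM in the CNT-T rats (log2 fold change -0.28 ± 0.078 SE, adjusted p = 0.0296), and the groups were close to each other but did not overlap.

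The ratio of Bub1b to Bub3, whose proteins bind each other, was also compared within each rat. The log2 ratio was -1.69 ± 0.43 (SD, n = 4) in the CNT-7 rats against -0.67 ± 0.18 (SD, n = 4) in the CNT-T rats, a difference of -1.01 without overlap between the groups (two-sided exact permutation test, p = 0.0286, adjusted p = 0.0714 over the 5 ratios tested). The unadjusted value is the smallest that 4 rats against 4 allow, and the adjusted one is above 0.05.

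In the centromere and kinetochore, which links chromosomes to spindle microtubules, all 13 genes fell, with a median log2 fold change of -1.21. Spc25, a subunit of the Ndc80 complex that grips the microtubule, had 9.46, 8.07, 6.75 and 14.9 CPM in the CNT-7 rats against 24.6, 24.7, 26.1 and 29.1 CPM in the CNT-T rats (log2 fold change -1.41 ± 0.21 SE, adjusted p = 0.00209). The other subunits of that complex, Ndc80, Nuf2 and Spc24, had log2 fold changes of -1.20, -1.33 and -1.35, so that all 4 fell at least 2-fold. Cenpt, which joins centromeric chromatin to the Ndc80 complex, had 9.16, 7.94, 6.28 and 14.01 CPM in the CNT-7 rats against 22.4, 25.7, 25.6 and 23.3 CPM in the CNT-T rats (log2 fold change -1.38 ± 0.21 SE, adjusted p = 0.00222). Cenpa, the histone H3 variant that marks the centromere, had 13.5, 9.25, 10.6 and 16.5 CPM in the CNT-7 rats against 26.1, 25.5, 33.1 and 35.98 CPM in the CNT-T rats (log2 fold change -1.28 ± 0.19 SE, adjusted p = 0.00188). In each of these 3 genes the highest CNT-7 rat lay well below the lowest CNT-T rat.

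Cenpe, a kinesin of the kinetochore, Cenpf, Knl1, the platform for Bub proteins, and Zwilch, a subunit of the complex that brings dynein to kinetochores, had log2 fold changes between -1.34 and -1.17. Cenpk and Cenpm, of the constitutive centromere network, had -1.09 and -1.21. Cenpm had the lowest CPM of the 57 genes and its standard error was the largest, 0.35. Cenpn, which recognises the Cenpa nucleosome, had 12.8, 8.91, 8.81 and 15.9 CPM in the CNT-7 rats against 13.9, 17.5, 17.7 and 21.4 CPM in the CNT-T rats (log2 fold change -0.60 ± 0.21 SE, adjusted p = 0.0685). It was the only gene of the 57 whose groups overlapped, as CNT-7 rat 11 was above CNT-T rat 1. Its adjusted p-value rose above 0.10 in 5 of the 8 fits that left out 1 rat, with a highest value of 0.165. The ratio of Cenpa to Cenpt did not separate the groups, with a log2 ratio of 0.44 ± 0.26 (SD, n = 4) in the CNT-7 rats against 0.30 ± 0.27 (SD, n = 4) in the CNT-T rats (two-sided exact permutation test, p = 0.543, adjusted p = 0.543).

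Of the mitotic kinases, Plk1, which acts from centrosome maturation to cytokinesis, had 11.6, 11.6, 9.42 and 20.96 CPM in the CNT-7 rats against 37.9, 29.1, 36.3 and 34.3 CPM in the CNT-T rats (log2 fold change -1.36 ± 0.22 SE, adjusted p = 0.00299). Incenp, the scaffold of the chromosomal passenger complex, had 28.4, 28.4, 20.3 and 38.3 CPM in the CNT-7 rats against 67.4, 67.5, 65.4 and 73.1 CPM in the CNT-T rats (log2 fold change -1.25 ± 0.16 SE, adjusted p = 0.000967). The CNT-T rats were close together for Incenp and further apart for Plk1, and CNT-7 rat 11 was again the highest of its group for both. The other parts of the passenger complex, which corrects wrong attachments and then moves to the midzone, fell as well. Birc5 (survivin) had a log2 fold change of -1.13, Cdca8 (borealin) of -1.02 and the kinase Aurkb of -0.97. The log2 ratio of Aurkb to Incenp was 0.25 ± 0.27 (SD, n = 4) in the CNT-7 rats against -0.014 ± 0.036 (SD, n = 4) in the CNT-T rats, with overlap (two-sided exact permutation test, p = 0.143, adjusted p = 0.179). Aurka, the kinase of the spindle poles, fell less than its relative Aurkb in value. It had 14.9, 16.3, 12.9 and 18.6 CPM in the CNT-7 rats against 20.5, 20.99, 24.2 and 23.99 CPM in the CNT-T rats (log2 fold change -0.51 ± 0.12 SE, adjusted p = 0.0142), without overlap.

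All 7 genes of anaphase control, cohesion and mitotic entry fell. Cdca2 (Repo-Man), which brings a phosphatase to anaphase chromosomes, had 9.07, 6.63, 5.38 and 13.1 CPM in the CNT-7 rats against 23.9, 22.4, 24.8 and 26.7 CPM in the CNT-T rats (log2 fold change -1.52 ± 0.24 SE, adjusted p = 0.0024). Cdca3 (Tome-1), which promotes entry into mitosis, had 9.46, 7.14, 6.43 and 16.9 CPM in the CNT-7 rats against 25.2, 26.9, 28.8 and 30.6 CPM in the CNT-T rats (log2 fold change -1.48 ± 0.27 SE, adjusted p = 0.00472). Each CNT-T rat had more of both genes than any CNT-7 rat. Cdca5 (sororin), which protects cohesin on replicated chromosomes, followed with a log2 fold change of -1.46. Cdc20, the activator of the anaphase-promoting complex, and Ube2c, its ubiquitin-conjugating enzyme, had -1.16 and -1.29. Pttg1 (securin), a target of that complex, had -0.98. Sgo1, which guards centromeric cohesion, had 20.3, 18.6, 14.3 and 22.2 CPM in the CNT-7 rats against 26.7, 23.6, 29.01 and 32.1 CPM in the CNT-T rats (log2 fold change -0.56 ± 0.14 SE, adjusted p = 0.0206), and the groups lay next to each other without overlap.

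The 9 kinesins, motors that move along microtubules or shorten them, all fell at least 2-fold. Kif11 (Eg5), which pushes the spindle poles apart, had 26.5, 18.7, 17.3 and 37.7 CPM in the CNT-7 rats against 65.95, 57.4, 67.9 and 78.3 CPM in the CNT-T rats (log2 fold change -1.43 ± 0.23 SE, adjusted p = 0.00268). Kif20b, which acts in abscission, had 12.7, 10.99, 8.74 and 20.4 CPM in the CNT-7 rats against 31.3, 28.4, 37.1 and 43.9 CPM in the CNT-T rats (log2 fold change -1.41 ± 0.24 SE, adjusted p = 0.0039). CNT-7 rats 5 and 10 were the lowest for both, and no rat of one group reached the other group. Kif15, which can stand in for Kif11, had a log2 fold change of -1.08, the chromosome-bound Kif4a and Kif22 -1.21 and -1.19, the minus-end motor Kifc1 -1.28 and the microtubule depolymerase Kif2c -1.27. The motors of the midzone, Kif20a and Kif23, had -1.25 and -1.05.

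The 5 genes of spindle microtubule proteins also fell at least 2-fold. Nusap1, which bundles microtubules near chromatin, had 19.9, 18.6, 18.1 and 30.9 CPM in the CNT-7 rats against 60.8, 52.3, 63.9 and 61.01 CPM in the CNT-T rats (log2 fold change -1.44 ± 0.17 SE, adjusted p = 0.000655), and its adjusted p-value was the smallest of the 57 genes. Ckap2l had 9.198, 5.96, 5.63 and 10.8 CPM in the CNT-7 rats against 21.2, 15.02, 18.3 and 21.3 CPM in the CNT-T rats (log2 fold change -1.26 ± 0.22 SE, adjusted p = 0.00375). For Nusap1, CNT-7 rats 3, 5 and 10 were nearly equal and rat 11 stood apart. Tpx2, the activator of Aurora A, Ckap2 and Hmmr had log2 fold changes of -1.21, -1.20 and -1.03.

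In cytokinesis, Cit (citron kinase), which organises the midbody, had 7.69, 7.74, 5.81 and 12.3 CPM in the CNT-7 rats against 21.1, 17.1, 23.8 and 21.2 CPM in the CNT-T rats (log2 fold change -1.31 ± 0.21 SE, adjusted p = 0.00277). Racgap1, which with Kif23 forms centralspindlin, had 30.6, 23.2, 19.6 and 38.4 CPM in the CNT-7 rats against 69.2, 59.4, 69.7 and 78.5 CPM in the CNT-T rats (log2 fold change -1.31 ± 0.19 SE, adjusted p = 0.0018). Both genes were lower in every CNT-7 rat. Ect2, the exchange factor that activates RhoA at the cleavage furrow, and Anln, a scaffold of the contractile ring, had log2 fold changes of -1.14 and -1.12. Prc1, which bundles midzone microtubules, fell less in value, with 102, 96.1, 79.9 and 124 CPM in the CNT-7 rats against 189, 175, 159 and 161 CPM in the CNT-T rats (log2 fold change -0.77 ± 0.13 SE, adjusted p = 0.00299).

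Chromosome condensation and the chromosome surface held the largest falls. Top2a, the topoisomerase that untangles sister chromatids, had 64.5, 53.5, 48.7 and 106 CPM in the CNT-7 rats against 227, 194, 219 and 230.0 CPM in the CNT-T rats (log2 fold change -1.68 ± 0.22 SE, adjusted p = 0.00107). Mki67, whose protein Ki-67 coats mitotic chromosomes and marks cycling cells, had 129.9, 92.1, 79.7 and 191 CPM in the CNT-7 rats against 385, 363, 381 and 402 CPM in the CNT-T rats (log2 fold change -1.64 ± 0.24 SE, adjusted p = 0.00179). CNT-T rats differed little from each other in both genes, whereas CNT-7 rat 11 had 2.17 times the level of CNT-7 rat 10 for Top2a and 2.39 times for Mki67.

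The subunits particular to condensin I fell by 2.84-fold for Ncaph, 2.51-fold for Ncapg and 2.21-fold for Ncapd2. Smc2 and Smc4, the core of both condensins, fell by 2.26-fold and 1.73-fold. The log2 ratio of Ncapg to Smc2 was -1.997 ± 0.17 (SD, n = 4) in the CNT-7 rats against -1.84 ± 0.056 (SD, n = 4) in the CNT-T rats, and the groups overlapped (two-sided exact permutation test, p = 0.143, adjusted p = 0.179). Other pairs of condensin genes were not tested.

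**Figure D3:**
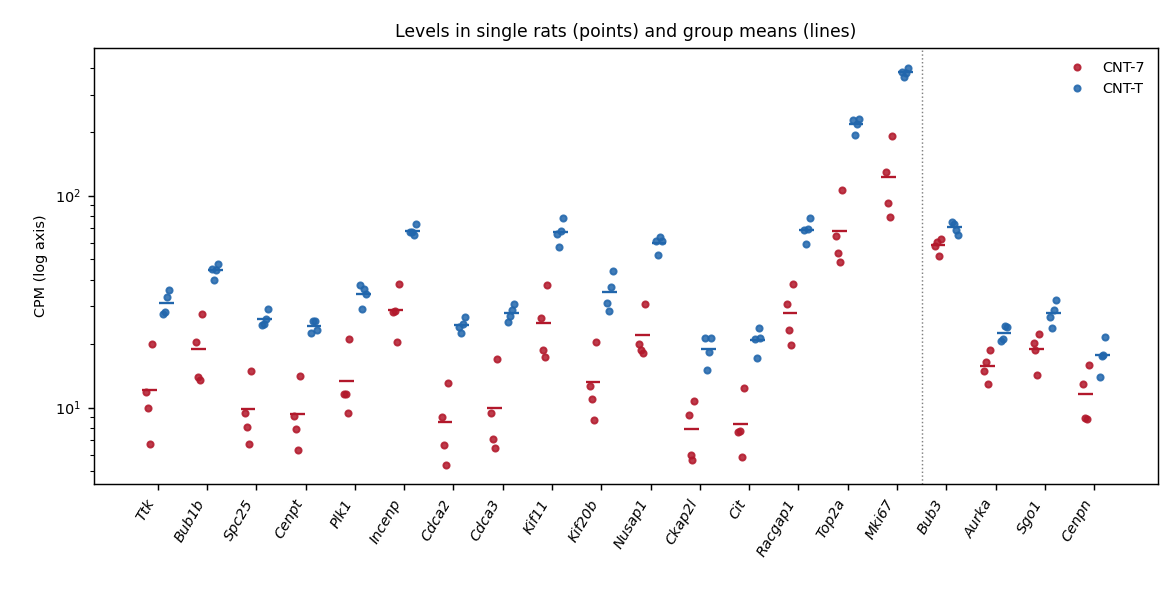
CPM on a log axis in each rat (points) and group mean (lines) of the 16 mitotic genes with the largest falls in their roles, and, right of the dotted line, of the 4 genes with the smallest falls. CNT-7 and CNT-T points are apart in every gene except Cenpn, and among the separate genes the means of Bub3 are closest.

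The falls were also set side by side by role. The quartiles of the 57 log2 fold changes were -1.34 and -1.12, and the medians of the 8 roles lay between -1.33 for chromosome condensation and -1.07 for the mitotic kinases and chromosomal passengers. A fall of less than 2-fold was seen in 8 genes, namely Bub3, Aurka, Sgo1, Cenpn, Prc1, Smc4, Aurkb and Pttg1. Among these, Aurka, Sgo1, Cenpn and Prc1 were described in every rat after their values were seen.

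**Figure D4:**
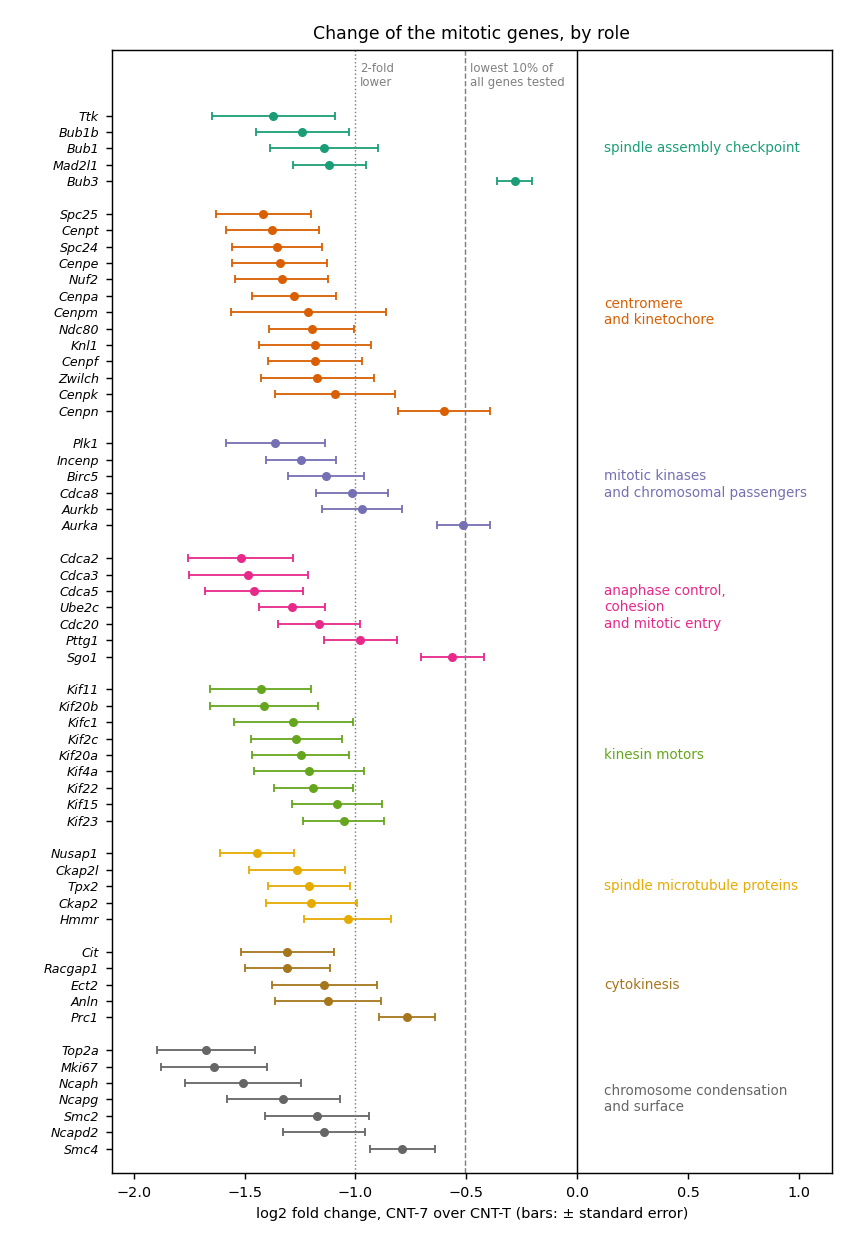
CNT-7 over CNT-T as a log2 fold change (x axis) with its standard error (bars) for each of the 57 mitotic genes, grouped by role. All points lie left of 0, 49 lie at or beyond a 2-fold fall (dotted line) and Bub3 alone lies right of the dashed line that bounds the lowest 10% of all genes tested.

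The rats of each group were then compared with each other. In 47 of the 57 genes the CNT-7 rats had the same order, with rat 10 lowest, then rat 5, rat 3 and rat 11. Rat 11 was the highest CNT-7 rat in 56 genes (Pttg1 was highest in rat 3) and rat 10 the lowest in 51. The highest CNT-7 rat had 2.12 times the level of the lowest in the median gene, with a range from 1.201 for Bub3 to 3.19 for Cenpm. Among CNT-T rats the median was 1.22, and the spread was wider after CNT-7 in all 57 genes. Over all genes tested, the median of this ratio was 1.28 in both groups. CNT-T rat 13 was the highest CNT-T rat in 36 genes and CNT-T rat 2 the lowest in 34.

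Expressed per rat, the median over the 57 genes of the log2 difference from the mean of 8 rats was -0.49, -0.88, -1.13 and -0.068 in CNT-7 rats 3, 5, 10 and 11. It was 0.60, 0.52, 0.67 and 0.75 in CNT-T rats 1, 2, 12 and 13. The CNT-T rats were thus within 0.22 of each other and the CNT-7 rats within 1.06, and CNT-7 rat 11 remained below every CNT-T rat. The wider spread after CNT-7 was not particular to the 57 genes. For the DNA replication genes described below, the CNT-7 rats were within 1.34 of each other and the CNT-T rats within 0.38. For the further mitotic genes these ranges were 0.94 and 0.32. As the 57 genes largely shared 1 order of the CNT-7 rats, they are not separate observations of the spread. Without CNT-7 rat 11 the median log2 fold change of the 57 genes was -1.45, and without CNT-7 rat 10 it was -1.06. The number of significant genes was 57 without rat 11 and 56 without rat 10. The labels number the rats from 1 to 5 and from 10 to 13, with 2 rats of each particle in each range. Median log2 ratios of group means were -1.24 in the first range and -1.21 in the second. Because the groups did not overlap in 56 of the 57 genes, a fall of those genes in both ranges follows from that. It is no separate support.

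Markers of macrophages and of other cells were measured in the same rats. All 10 macrophage markers, among them Cd68 and Csf1r, were expressed, with summed levels of 4150 to 6575 CPM in the CNT-7 rats against 6501 to 9079 CPM in the CNT-T rats. The CNT-7 rats had the same order for this sum as for most mitotic genes. Taken singly, Cd68, Csf1r, Mertk, Cd14 and Mrc1 each had another order of the CNT-7 rats. The markers did not move one way, as 6 were significantly lower after CNT-7, 1 was higher and 3 did not pass. Adgre1 (F4/80), C1qc and C1qb fell most among them, with log2 fold changes of -1.13, -1.10 and -0.86. Cd14 rose (0.46, adjusted p = 0.00713), and Mrc1 had 0.58 (adjusted p = 0.203). Markers of T and NK cells added up to 12.6 to 16.1 CPM in the CNT-7 rats against 5.21 to 5.80 CPM in the CNT-T rats. Cd2 and Cd8a were significantly higher after CNT-7 and gave most of this difference. Cd8a had a mean of 6.02 CPM after CNT-7 against 0.896 CPM after CNT-T, and Cd2 had 2.22 against 0.194 CPM. Lck was not higher, with 2.88 against 3.42 CPM, and did not pass the test. Cd3d, Cd3e and Cd3g had a mean under 1 CPM in both groups. In CNT-7 rat 5, however, Cd3e was 2.11 CPM and Cd3g 1.27 CPM, against at most 0.51 and 0.23 CPM in the other rats. Neutrophil markers added up to 3.08 to 9.65 CPM in the CNT-7 rats against 6.63 to 11.1 CPM in the CNT-T rats. Of these, S100a8 was significantly lower after CNT-7, with 1.45, 2.91, 3.25 and 1.34 CPM in the CNT-7 rats against 9.03, 4.88, 4.19 and 6.59 CPM in the CNT-T rats (adjusted p = 0.0159) and no overlap, whereas S100a9 was 3.69 CPM in CNT-7 rat 5 and below 1 CPM in the other rats. B cell, mast cell, eosinophil and mesothelial or fibroblast markers each summed to less than 10 CPM in every rat, but a few libraries stood apart. Eosinophil markers reached 9.33 CPM in CNT-7 rat 3, of which Ccr3 gave 8.74, and were at most 0.67 CPM in the other rats. B and plasma cell markers reached 2.91 CPM in CNT-7 rat 5 and were at most 0.76 CPM in the others. The median log2 fold change of the 57 mitotic genes was -1.25 without CNT-7 rat 3 and -1.12 without CNT-7 rat 5. The markers Gzmb, Mpo, Epx, Prg3, Upk3b, Wt1 and Gp9 had no count. Of 6 erythroid and megakaryocyte markers, Pf4, which macrophages also express, gave nearly all of the sum, 187 to 416 CPM in the CNT-7 rats against 469 to 725 CPM in the CNT-T rats. Hbb had 21.8 and 18.1 CPM in CNT-7 rats 3 and 5 but 2.27 and 2.53 CPM in CNT-7 rats 10 and 11. In the CNT-T rats Hbb had 0.43 to 9.88 CPM, and it did not pass the test. The part that any of these differences had in the fall of the mitotic genes was not tested.

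Further genes of mitosis were read from a list of 52 that does not overlap the 57. Of these, 51 were tested, 46 were significantly lower after CNT-7 and 0 higher, and their median log2 fold change was -1.14. The 3 with the smallest p-values were Ncapg2, a subunit of condensin II, Bora, a cofactor in the activation of Plk1, and Aspm, which focuses spindle poles, with log2 fold changes of -1.12, -1.06 and -1.28. The 5 genes that did not pass the test, named after their values were seen, were Mis12, Zwint, Mad1l1, Tacc3 and Ube2s, with log2 fold changes between -0.32 and -0.030. Tacc3 had 115 ± 3.73 CPM (SD, n = 4) in the CNT-7 rats against 118 ± 6.29 CPM (SD, n = 4) in the CNT-T rats (log2 fold change -0.03, adjusted p = 0.761). Psrc1, which acts at the spindle and was also named after its values were seen, lay far below the others. It had 0.263, 0.0335, 0.181 and 0.181 CPM in the CNT-7 rats against 1.4997, 1.03, 1.68 and 0.823 CPM in the CNT-T rats, and since its CNT-7 values rest on a few counts per rat no fold is given.

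The core subunits of the anaphase-promoting complex and its coactivator Fzr1 (Cdh1), which acts after Cdc20, were set beside Cdc20 and Ube2c. Of these 15 genes 3 were lower after CNT-7, which is near the 14.0% of all genes tested, 0 were higher, and the median log2 fold change was -0.13. Those 3, Anapc1, Cdc26 and Anapc11, had log2 fold changes of -0.25, -0.24 and -0.21. The number was 1 when CNT-7 rat 3 or 5 or CNT-T rat 2 or 12 was left out, and Cdc26 and Anapc11 lost their call in 5 and 6 of the 8 fits that left out 1 rat. Of 10 genes of cohesin, its loader and its release factors, 4 were lower and 1 higher, with a median of -0.16. Pds5b (log2 fold change -0.46), Smc3 (-0.30) and Smc1a (-0.31) had the smallest p-values among the falls, and the loader subunit Mau2 rose (0.23, adjusted p = 0.0649). Mau2 lost its call in 6 of the 8 fits that left out 1 rat.

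Of 16 genes of tubulins and the gamma-tubulin complex, 9 were lower and 1 higher after CNT-7, with a median log2 fold change of -0.28. The largest change in each direction was that of Tubb2a (log2 fold change -0.94 ± 0.11 SE, adjusted p = 0.000576) and of Tuba1a (log2 fold change 0.93 ± 0.091 SE, adjusted p = 0.000307). Tuba1a had 108, 95.9, 84.9 and 95.1 CPM in the CNT-7 rats against 47.7, 56.6, 49.4 and 47.9 CPM in the CNT-T rats, and the groups did not overlap. Tuba1b, named after its values were seen, moved the other way, with 913 ± 181 CPM (SD, n = 4) in the CNT-7 rats against 1425 ± 81.5 CPM (SD, n = 4) in the CNT-T rats (log2 fold change -0.64, adjusted p = 0.00811). Transcripts of alpha-tubulins are alike, so the division of reads between Tuba1a and Tuba1b is uncertain. Tubb5 and Tubgcp6 were also lower, with log2 fold changes of -0.73 and -0.60.

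**Figure D5:**
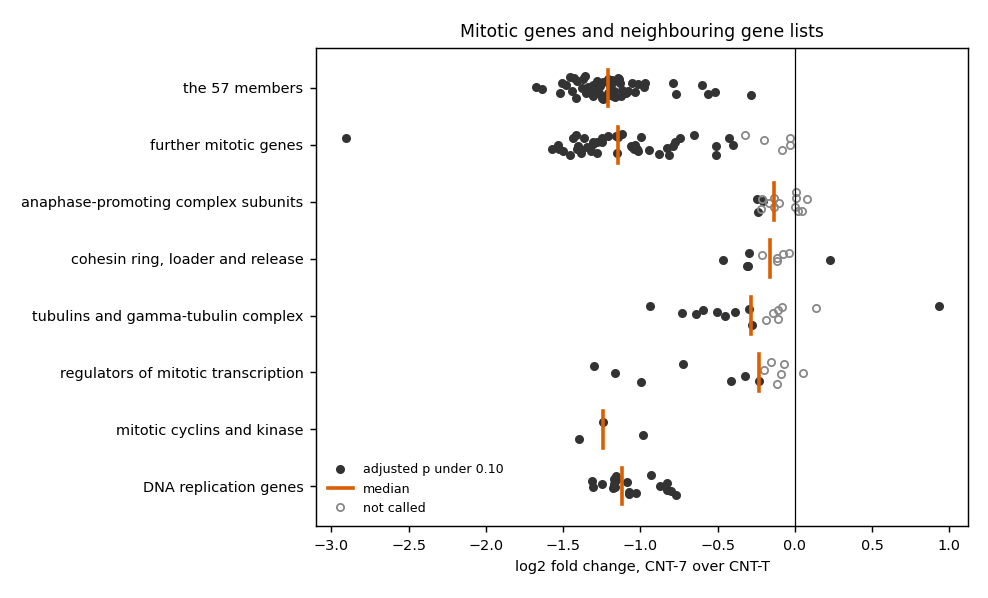
CNT-7 over CNT-T as a log2 fold change (x axis) for each tested gene of the 57 members and of 7 other lists, with filled points for an adjusted p-value under 0.10, open points for genes that did not pass and a bar at the median. Members, further mitotic genes, cyclins and DNA replication genes have medians between -1.24 and -1.12, and the other lists have medians between -0.28 and -0.13 (the list of anaphase-promoting complex subunits includes the coactivator Fzr1).

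Among 13 regulators of mitotic transcription, 7 were lower after CNT-7 and 0 higher, with a median of -0.23. Foxm1, the factor that drives late cell cycle genes, had 13.3, 13.2, 8.09 and 19.7 CPM in the CNT-7 rats against 35.5, 30.7, 33.6 and 34.1 CPM in the CNT-T rats (log2 fold change -1.30 ± 0.21 SE, adjusted p = 0.00307). Every CNT-T rat was above every CNT-7 rat. Rbl1 (p107) had a log2 fold change of -0.72 and Rbbp4, a MuvB subunit, of -0.41. Of the mitotic cyclins and their kinase, Ccna2, Ccnb1 and Cdk1 were lower, with log2 fold changes of -1.24, -0.98 and -1.40, and Ccnb2 was not analysed here.

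For comparison with an earlier step of the cell cycle, all 20 genes of a DNA replication list were lower after CNT-7, with a median log2 fold change of -1.12, near that of the mitotic genes. The 3 with the smallest p-values were Pcna (-0.83), Rfc4 (-1.08) and Mcm4 (-1.16). Mki67 was compared within each rat with Mcm2, a subunit of the replicative helicase, which had 60.8, 53.4, 33.98 and 90.7 CPM in the CNT-7 rats against 117, 153, 136 and 131 CPM in the CNT-T rats. The log2 ratio of Mki67 to Mcm2 was 1.04 ± 0.19 (SD, n = 4) in the CNT-7 rats against 1.52 ± 0.21 (SD, n = 4) in the CNT-T rats, a difference of -0.47 without overlap (two-sided exact permutation test, p = 0.0286, the smallest that is possible, adjusted p = 0.0714). Mki67 (log2 fold change -1.64) lay far below the median of the 57 genes (-1.21), whereas Mcm2 (-1.17) was near the median of its list. The ratio therefore compares these genes and not the lists.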

How the data were processed

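RNA-seq was done on macrophages sorted from 8 rats (4 CNT-7, 4 CNT-T), grouped by the injected particle in the labels. The deposited values are estimated counts per gene, which the authors made with Salmon against Ensembl transcripts of Rnor_6.0 and summed by gene. They were whole numbers and not normalized, and the Salmon version is not given in the sources used here.

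Totals were between 27195157 and 33732981 counts per rat, so 3 counts correspond to between 0.0887 and 0.109 CPM. That floor covers counting error only. Genes were filtered with filterByExpr (minimum count 10, minimum total 15), scaled by TMM and tested with the quasi-likelihood test of edgeR 4.0.16 (R 4.3.3), with Benjamini-Hochberg adjustment over all 12124 genes tested. A gene passed at an adjusted p-value below 0.10. The standard error (SE) was derived from the fold change and the F statistic. The scripts were tested on simulated data. Within-rat ratios of 5 gene pairs, as log2 CPM after adding a prior of 0.1 CPM, went into a two-sided exact permutation test (70 divisions of the rats, smallest p 0.0286, threshold 0.05).

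The genes and lists were chosen with earlier results of these data known. Values in every rat are given for the 2 genes of each role with the largest change among those called and a mean of at least 1 CPM, and from each other list at most 3 genes per direction were named by smallest p-value, beside the genes of the ratios, the cyclins and their kinase. Genes described beyond this rule, such as Aurka, Sgo1, Cenpn and Prc1, were chosen after their values were seen. Promoter sequences are RefSeq's (GRCr8, matched by symbol), a build other than that of the counts, and were used for motifs only. Alternatives were DESeq2 1.42.0, upper-quartile scaling, no filter, at least 10 counts in every rat, a prior of 0.5 CPM for the ratios, an adjusted p-value below 0.05, an added 2-fold limit, the range of rat numbers as a covariate, and each rat left out. Cenpq and Ccnb2 were not analysed here.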

Additional observations from a re-analysis of the deposited data

Results flagged for a closer look

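In groups of 4 rats, the rat farthest out was compared with the others by its gap divided by the range of the group (Dixon's test at the 95% level). Of 186 groups examined, 6 passed, where chance gives about 9.3. Pttg1 was lowest in CNT-T rat 2 (20.8 CPM against 26.2 to 26.7 in the other CNT-T rats, gap share 0.916). Aspm was lowest in the same rat (37.0 against 49.9 to 51.9 CPM, gap share 0.868). Anapc11 was lowest in CNT-T rat 13 (36.3 against 40.5 to 41.0 CPM, gap share 0.898). Nusap1 was highest in CNT-7 rat 11 (30.9 against 18.1 to 19.9 CPM, gap share 0.853), as was Zwint (32.1 against 25.5 to 26.6 CPM, gap share 0.842). The log2 ratio of Aurkb to Incenp was lowest in CNT-7 rat 5 (-0.15 against 0.34 to 0.43, gap share 0.833).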

How the results depend on the processing

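Under 15 alternatives, 841 of 855 results for the 57 genes kept direction and call, 14 lost the call and 0 reversed. The number of the 57 called was 56 at an adjusted p-value below 0.05, 49 with a 2-fold limit, 57 with DESeq2 (15.3% of all genes lower) and from 56 to 57 when 1 rat was left out, and their median log2 fold change then ran from -1.45 to -1.06. With the 2-fold limit the number of all genes called went from 3383 to 1006, of listed genes from 94 to 51, of lower anaphase-promoting complex genes from 3 to 0, of lower cohesin genes from 4 to 0, of lower tubulin genes from 9 to 0 and of lower regulators from 7 to 2. That limit removes smaller changes by construction. At an adjusted p-value below 0.05, the anaphase-promoting complex kept 1 gene, and with 1 rat left out it had from 1 to 4. Mis12 reversed without CNT-T rat 13 (log2 fold change 0.048, from -0.030, and -0.091 without CNT-T rat 1), and the cause was not tested. No paired analysis was possible because the groups share no rat number. With 4 rats per group, none of the 5 ratios passed 0.05 after adjustment, and leaving out 1 rat changed no sign. Bulk RNA gives no cell numbers.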
